A study of Mus musculus with 12 samples.

Results

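The erythroid microRNA (miRNA) hairpins mmu-mir-451a, mmu-mir-144, mmu-mir-486a and mmu-mir-486b, written without the mouse prefix from here on, were followed through small RNA sequencing of mouse sperm and of a mouse Sertoli cell line. They are 4 of the 1050 miRBase hairpins with a read in any of the 12 libraries. The members were picked by name, with earlier results of these data known. Their reads were taken from the miRNA classes of every library, with and without a genome match. A hairpin is the folded precursor from which a mature miRNA is cut, and the reads of both its arms were counted together. Values are counts per 1000000 miRNA reads of the library (CPM), and they were not divided by length because a read covers a small RNA from end to end.

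Sperm came from the epididymis of C57BL6/J mice fed for 7 weeks, from 4 weeks of age in the labels and a later age in the study's text, with a control diet (CD, 16% of kcal from fat, n = 3 libraries) or a high-fat diet (HFD, 69% of kcal from fat in the labels and a lower share in the study's methods, n = 3). Each sperm library was a pool of 3 mice. TM4 cells, a cultured line of mouse Sertoli cells, the somatic nurse cells of the testis, were grown with 10% fetal bovine serum in every group. They were left without treatment (Ctrl, n = 2), given Compound C, an inhibitor of the energy sensor AMPK, at 10 µM for 12 hours (CC, n = 2), or made to overexpress Ang, the gene of the ribonuclease angiogenin, from a plasmid (AngOE, n = 2). The sperm libraries held between 11412945 and 14822686 miRNA reads and the TM4 libraries between 27651384 and 35704399. Nothing in the labels says that the TM4 replicates were separate cultures, so their p-values measure the spread between these libraries, which may be technical.

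The mir-144 and mir-451a hairpins lie next to each other and are made from a shared primary transcript, which the erythroid factor GATA1 turns on as red cells mature. mir-451a is known for its way of processing: its short hairpin is not cut by Dicer but by Argonaute 2, so that the mature miRNA runs on into the loop. mir-486 comes from the gene of ankyrin 1, a protein of the red cell membrane, and is abundant in red cells and in muscle. mir-144 and mir-451a are thus the more specific markers of the red lineage among the members.

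The mature sequences of the cluster are shown because their seeds (bases 2 to 8, in capitals, counted from the 5′ end), which pair with target RNAs, differ from each other. They were taken from RefSeq, build GRCm38.p6, the assembly of the mm10 build named in the labels. Entries there were matched for 2 of the 4 members, mir-144 and mir-451a.
mmu-miR-451a: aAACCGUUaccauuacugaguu
mmu-miR-144-3p: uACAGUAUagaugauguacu
mmu-miR-144-5p: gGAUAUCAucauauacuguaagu

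None of these 3 seeds was shared with another of the 1679 mature names in the table. The mir-144 hairpin occupies chr11:78073005-78073070 on the plus strand and the mir-451a hairpin chr11:78073170-78073241 on the same strand, with 99 bases between them. Both lie between the protein-coding genes Flot2, which ends at 78060434, and Eral1, which starts at 78073376, and overlap neither. The mir-451a hairpin is printed next to show the feature that sets it apart, with the mature miRNA in capitals.
mmu-mir-451a hairpin: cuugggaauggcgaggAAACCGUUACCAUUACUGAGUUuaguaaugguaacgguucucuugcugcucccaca
mmu-mir-144 hairpin: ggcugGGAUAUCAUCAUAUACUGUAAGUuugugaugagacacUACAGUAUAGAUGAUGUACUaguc

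The mature miR-451a of 22 bases takes bases 17 to 38 of its hairpin of 72 bases. In the fold predicted by RNAfold it covers all 4 bases of the loop and none of the arm that follows. The mir-144 hairpin, of 66 bases, holds a mature miRNA on each arm, and neither reaches the loop. mir-451b lies on the opposite strand of the mir-451a hairpin, and its sequence is the exact reverse complement. It was listed with 0.5 reads in CD replicate 1 and 0.5 in HFD replicate 1, and with none in the other 10 libraries, so it took almost nothing from the mir-451a counts.

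The entry of mir-486b in the RefSeq gene table lies within that of mir-486a, and SPORTS1.1 divides a read that matches both. The counts of the pair were therefore close to equal in every library, with a ratio of mir-486a to mir-486b between 1.005 and 1.009. The pair is read here as 1 measurement, so that 2 calls on it are not 2 results. Sums over both are written mir-486a+b.

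All 4 members were at 101 CPM or more in every sperm library, whereas in TM4 cells only the mir-486 pair reached that level. In CD sperm the members made up 3.04% ± 0.413 (SD, n = 3) of miRNA reads, and mir-486a+b gave between 91.7% and 95.9% of the members' reads in the 6 sperm libraries. In Ctrl TM4 cells they made up 0.280% ± 0.00846 (SD, n = 2), and mir-486a+b gave over 99.9% of those reads in every TM4 library. The share of mir-144 and mir-451a within the group of members was thus far larger in sperm.

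**Figure D1:**
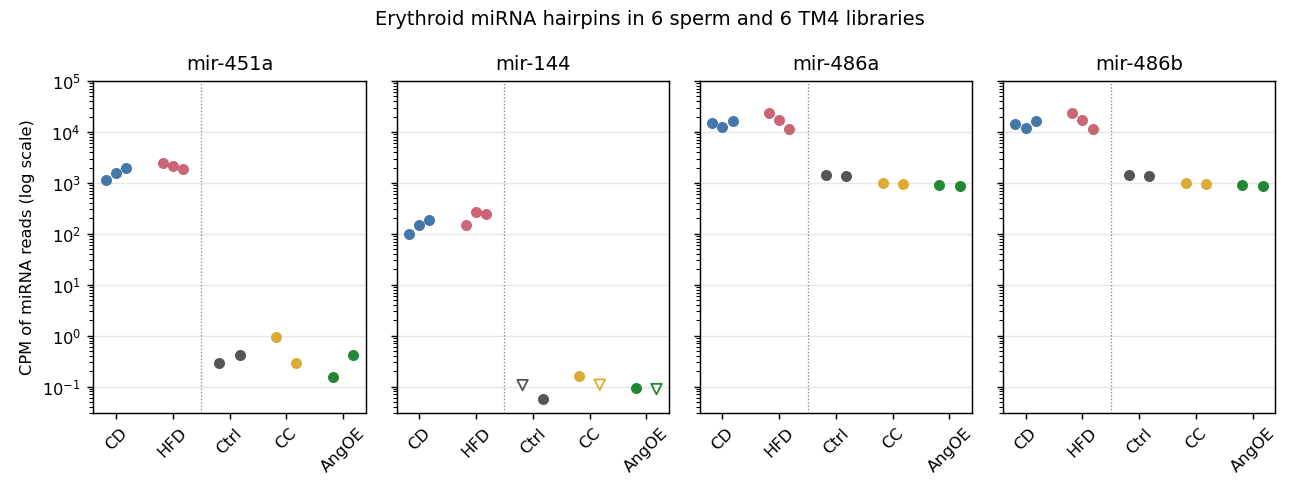
CPM of miRNA reads on a log axis for each member in the 5 groups. Points are libraries, and open triangles mark the level of 3 reads in libraries where mir-144 had 0 reads. The sperm libraries (left of the dotted line) sit above 100 CPM for every member, and in TM4 cells mir-451a and mir-144 stay below 1 CPM while the mir-486 pair stays at 877 CPM or more.

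The level of mir-486a in CD sperm was 14691, 12287 and 16233 CPM in replicates 1, 2 and 3, which placed it among the 10 most abundant hairpins. mir-451a was at 1155, 1583 and 1934 CPM in the same libraries. mir-144 was at 101, 149 and 183 CPM. Within each library the order was thus mir-486 above mir-451a above mir-144, and these 3 levels did not overlap between members in any of the 6 sperm libraries. mir-451a ranked between 33 and 50 among the hairpins of a sperm library, and mir-144 between 95 and 127.

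In Ctrl TM4 cells mir-451a was seen in 8 and 15 reads, or 0.284 and 0.420 CPM. mir-144 was seen in 0 and 2 reads. A count of 0 in Ctrl replicate 1 allows up to 3 reads, or 0.107 CPM. Across the 6 TM4 libraries mir-451a ranked between 394 and 534 among the 720 to 746 hairpins detected. Over all TM4 libraries together, mir-451a had 79 reads and mir-144 had 10. By contrast, mir-486a had 40340 and 49023 reads in the Ctrl libraries, or 1433 and 1373 CPM.

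CD sperm was compared with Ctrl TM4 cells, both without treatment, to place these levels beside each other. Pooled over the libraries, the CPM of mir-451a was 4302 times higher in CD sperm (95% interval 2970 to 7177), on 59975.5 against 23 reads. That of mir-144 was 4586 times higher, on 5560 against 2 reads, with an interval from 1269 to 37877 that the 2 reads leave wide. mir-486a+b was 10.4 times higher (10.3 to 10.4). These intervals cover counting error only, and the libraries' spread is in the test that follows.

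In edgeR's quasi-likelihood test across 590 hairpins, with adjusted p by Benjamini-Hochberg, all 4 members were called higher in CD sperm, where 40.7% of the hairpins tested were called in that direction. The log2 fold change of mir-451a was 13.39 (SE 0.40, adjusted p = 1.99e-08). It was 13.19 for mir-144 (SE 0.57, adjusted p = 1.49e-07) and 4.71 for mir-486a (SE 0.23, adjusted p = 2.79e-07). Without Ctrl replicate 1 these values were 12.27, 11.58 and 3.85, and without Ctrl replicate 2 they were 12.85, 14.45 and 3.82, all still called. Only 19 hairpins had a fold change at least as large as that of mir-451a in either direction, mir-451a included, against 179 for mir-486a. mir-144 and mir-451a passed the filter on low counts only through their reads in sperm and so had to differ, and their fitted folds rest on the few TM4 reads.

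The groups did not overlap for any member, which held in this direction for 34.4% of the hairpins tested. The exact permutation p for a single member was 0.2, which is also the smallest that 3 against 2 libraries can give. Scaling moved these values. The median log2 fold change of all hairpins was -0.13 with TMM normalization and -1.47 with miRNA reads alone as the library size, and calls went from 240 higher and 215 lower to 194 higher and 342 lower. With miRNA reads alone the log2 fold changes of mir-451a, mir-144 and mir-486a were 12.06, 11.92 and 3.36. Relative to the median of all hairpins, which such a scaling shifts alike, mir-451a was 13.52 and mir-486a 4.84 higher with TMM. Sperm and TM4 libraries differ in material, culture and preparation, which cannot be told apart here. In bulk RNA, fewer cells of a type and less RNA per cell cannot be told apart either.

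Lists of marker miRNAs give the setting of these levels. The 12 germ cell hairpins (mir-34b, mir-34c, mir-449a and the testis cluster with mir-741, mir-871, mir-880 and mir-881) summed to between 3832 and 11230 CPM in CD sperm and to 1017 and 1050 CPM in Ctrl TM4 cells, where mir-34c held 960 CPM of the mean. Of these, 9 passed the filter on low counts only through their sperm reads and so had to differ. The other 3 were also called higher, as 40.7% of all hairpins were. The germ cell list was thus present in the sperm libraries by its level. No miRNA that marks Sertoli cells was in the lists, so the cell type of the TM4 line was not checked here.

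Markers of other cell types were also abundant in the sperm libraries. The 5 epithelial hairpins of the mir-200 family, of which 3 passed the filter only through sperm and had to differ, summed to between 9281 and 10573 CPM in CD sperm against 1.28 and 1.93 CPM in Ctrl TM4 cells. The epithelial sum in sperm was thus of the same order as that of the germ cell list. The white blood list had 5 of 7 hairpins tested, with 4 called higher, 1 of which (mir-223) passed the filter only through sperm, and 1 lower. In this comparison 40.7% of all hairpins were called higher and 36.4% lower. The sum of the white blood list was 1286 to 1387 CPM in CD sperm and 1321 and 1323 CPM in Ctrl TM4 cells, but from different hairpins. In CD sperm mir-142a, made across white blood cells, had a mean of 526.9 CPM, against 1.42 CPM in Ctrl TM4 cells. mir-223 of neutrophils was at a mean of 30.0 against 0.173 CPM, and mir-150 of lymphocytes at 76.5 against 2.46 CPM. mir-155 went the other way, at 9.91 against 1265 CPM. mir-142 and mir-142b were at 0 in all 12 libraries.

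mir-126a of endothelium was called higher in CD sperm, as 40.7% of all hairpins were. It was the 1 hairpin of its list tested, at 686 to 896 CPM against 103 and 107 CPM, and mir-126b was not tested. Of the smooth muscle list, mir-143 was called higher (log2 fold change 1.05, SE 0.20, adjusted p = 0.00143 in edgeR) after TMM scaling, though its groups overlapped and its mean was lower before that scaling, at 41998 against 51449 CPM. mir-145a, the other hairpin of that list tested, had a log2 fold change of -0.18 (SE 0.15, adjusted p = 0.279 in edgeR), with a mean of 417 against 1192 CPM and no overlap. Of the hairpins that fall as red cells mature, mir-221 and mir-222 were both called lower in CD sperm, as 36.4% of all hairpins were. Their log2 fold changes were -3.04 (SE 0.13) and -3.05 (SE 0.15). Together they reached 408 to 427 CPM in CD sperm against 8658 and 8740 CPM in Ctrl TM4 cells. The study's methods describe sperm released from cut epididymis into a salt buffer and spun down, and no step that removes other cells. The part of red, white blood, epithelial and endothelial cells in the members' levels was not tested.

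The other erythroid hairpins, which red cells hold but which many other cells make too, did not follow the members. Of 12 listed, 11 were tested, and 3 were called higher and 8 lower in CD sperm, where 40.7% of all hairpins were called higher and 36.4% lower. Their median log2 fold change was -0.70, against -0.13 for all hairpins tested. mir-191 was higher (1.60, SE 0.14), while mir-93, at a mean of 494 against 4959 CPM, and mir-106b (-1.64, SE 0.14), which share a cluster, were lower. mir-363, at a mean of only 1.12 CPM in CD sperm and 0 in Ctrl TM4 cells, passed the filter only through sperm and so had to differ. Their sum was 53945 to 62928 CPM in CD sperm and 142018 and 146324 CPM in Ctrl TM4 cells.

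The diet comparison asked whether HFD feeding changed the members in sperm. The means of all 4 were higher in HFD than in CD, but the groups overlapped for each of them, and none was called. The members were thus at the background of this comparison, in which 0% of the hairpins were called by edgeR at an adjusted p under 0.05, 31 hairpins had an unadjusted p under 0.05, and DESeq2 called 8. HFD replicate 1 stood apart from the other HFD libraries: the chi-square per degree of freedom over hairpins was 1138 and 1461 against HFD replicates 2 and 3, while the other pairs of sperm libraries within a diet lay between 257 and 312.5.

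**Figure D2:**
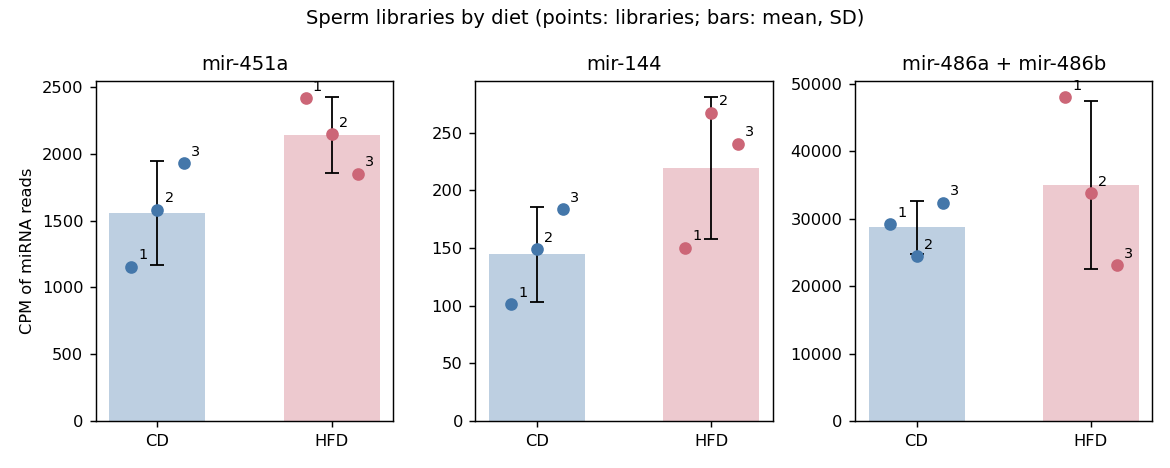
CPM of mir-451a, mir-144 and mir-486a+b in the sperm libraries of each diet. Points are libraries with their replicate number, bars are means of 3 libraries and error bars the SD. The HFD points overlap the CD points for each of them, and HFD replicate 1 is the highest for mir-451a and mir-486a+b and the lowest HFD library for mir-144.

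mir-451a was at 2420, 2151 and 1852 CPM in HFD replicates 1, 2 and 3, and at 1155, 1583 and 1934 CPM in the CD replicates. Only CD replicate 3 reached the HFD range, and it did so by lying above HFD replicate 3. The mean was 1557 ± 390 CPM in CD and 2141 ± 284 CPM in HFD (SD, n = 3 each). The log2 fold change of 0.35 (SE 0.22, adjusted p = 0.989 in edgeR) did not pass the test. It was 0.64 (SE 0.21, adjusted p = 0.543 in edgeR) without CD replicate 3, and between 0.28 and 0.52 without any other library. The exact 2-sided permutation p was 0.2, where 0.1 is the smallest that 3 against 3 libraries can give.

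mir-144 was at 150, 267 and 240 CPM in the HFD replicates, against 101, 149 and 183 CPM in the CD replicates. HFD replicates 2 and 3 lay above every CD library, and HFD replicate 1 lay between CD replicates 2 and 3. In edgeR the log2 fold change was 0.51 (SE 0.30, adjusted p = 0.989), with means of 145 ± 41.3 in CD and 219 ± 61.4 CPM in HFD (SD, n = 3 each). It ranged from 0.27 (SE 0.32) without HFD replicate 2 to 0.83 (SE 0.33) without CD replicate 3, and was 0.81 (SE 0.24) without HFD replicate 1, at an adjusted p of 0.193 in edgeR. The exact permutation p of mir-144 with all 6 libraries was 0.2.

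mir-486a+b was at 48025, 33745 and 23146 CPM in the HFD replicates and at 29255, 24505 and 32373 CPM in the CD replicates. The HFD libraries thus held both the highest and the lowest value of the 6. For mir-486a the log2 fold change was 0.16 (SE 0.28, adjusted p = 0.989 in edgeR). It turned to -0.03 without HFD replicate 1 and to -0.01 without CD replicate 2, and was 0.45 without HFD replicate 3. The exact permutation p of mir-486a was 0.6. The diets were not separated by the pair beyond the spread of their libraries.

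Scaling moved the median of all hairpins here too, from -0.01 with TMM to 0.19 with clean reads without rRNA as the library size. With clean reads the log2 fold change of mir-451a was 0.55 (SE 0.20, adjusted p = 0.560 in edgeR), that of mir-144 0.71 (SE 0.29, adjusted p = 0.612) and that of mir-486a 0.36 (adjusted p = 0.698), so that none was called. The shift is common to all hairpins, and relative to the median with TMM they were at 0.36, 0.51 and 0.17.

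**Figure D3:**
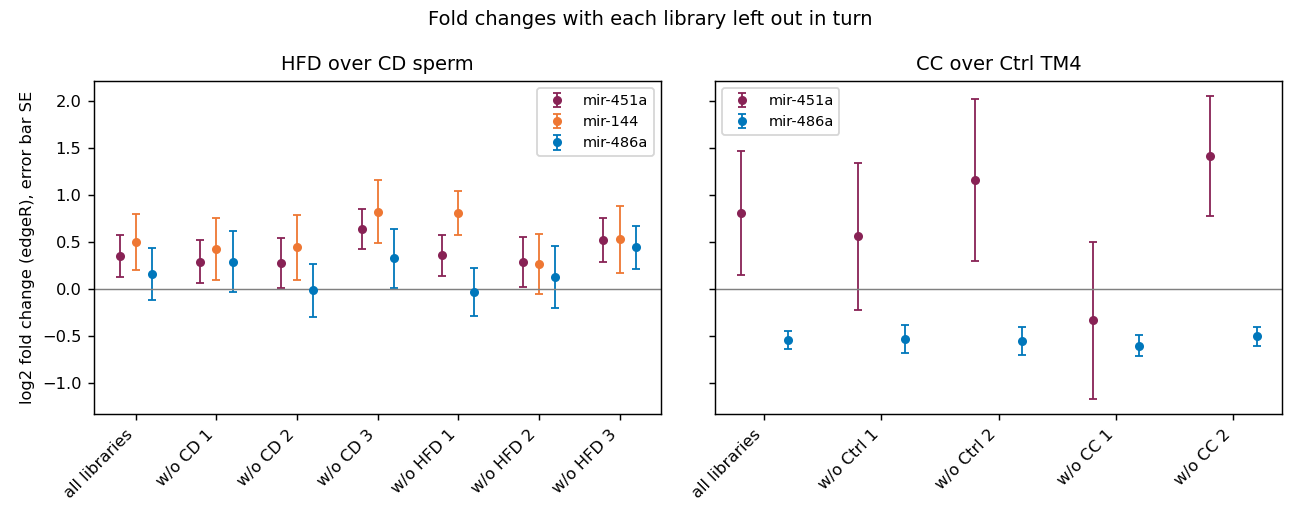
The log2 fold change of the members in edgeR with all libraries and with each library of the compared groups left out in turn, for HFD over CD sperm (left) and CC over Ctrl TM4 cells (right). Points are fitted values and error bars the SE, and mir-144 has no point in TM4 cells because its counts were too low to test. In sperm mir-451a and mir-144 stay above 0 and mir-486a crosses 0, and in TM4 cells mir-486a stays between -0.60 and -0.50.

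Added together, the members made up 3.05%, 2.62% and 3.45% of miRNA reads in CD replicates 1, 2 and 3, and 5.06%, 3.62% and 2.52% in the HFD replicates. The sum follows the mir-486 pair, and HFD again held both ends of the range. Its mean log2(CPM + 1) was 0.25 higher in HFD, but -0.00061 without HFD replicate 1, 0.15 without CD replicate 2 and 0.50 without HFD replicate 3, so that its size depended on single libraries in both directions.

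The members did not move as 1 block across the sperm libraries. Over the 6 libraries, Pearson's r of log2(CPM + 1) was 0.66 between mir-451a and mir-144, 0.57 between mir-451a and mir-486a+b and -0.11 between mir-144 and mir-486a+b, given as a description of libraries that differ in diet and depth. The reads of mir-451a for each read of mir-144 numbered 11.4, 10.6 and 10.5 in the CD replicates and 16.1, 8.04 and 7.71 in the HFD replicates. The ratio of these neighbours on 1 transcript was thus nearly constant in CD, and in HFD it lay above the CD range in 1 library and below it in the other 2. The exact permutation p for the ratio between the diets was 1. The reads of mir-486a+b for each read of mir-451a numbered 25.3, 15.5 and 16.7 in CD and 19.8, 15.7 and 12.5 in HFD (exact permutation p = 0.5).

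Of the 253 hairpins with at least 100 reads on average in sperm, those whose levels went most closely with the summed members over the 6 libraries were mir-671 (r = 0.87), mir-215 (0.87), mir-423 (0.83), mir-674 (0.78) and mir-374b (0.77). None of the other erythroid hairpins was among these 5. With 6 libraries and 253 hairpins to choose from, such values describe these libraries only.

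None of the marker lists had a hairpin called between the diets by edgeR, and 2 hairpins in them, mir-142a and mir-871 of germ cells, had an unadjusted p under 0.05. The other erythroid list had 11 of 12 hairpins tested and a median log2 fold change of 0.08, against -0.01 for all hairpins, and its most abundant hairpins, mir-191 and mir-22, had values of -0.09 (SE 0.22) and 0.15 (SE 0.15). Its sum was 53945, 62928 and 60585 CPM in the CD replicates and 80819, 52308 and 58341 CPM in the HFD replicates, so that HFD replicate 1 was the highest here as well. The white blood list had a median of 0.10 over 5 hairpins, and its sum did not overlap between the diets, at 1286 to 1387 CPM in CD and 1396 to 2181 CPM in HFD. In this list mir-146a was the most abundant in CD, at a mean of 703 CPM in CD and 687 CPM in HFD, and mir-142a was at 521, 575 and 484 CPM in the CD replicates and 1179, 688 and 792 CPM in the HFD replicates. Its groups did not overlap, which held with HFD higher for 3.99% of the hairpins tested, and its log2 fold change of 0.63 (SE 0.21) had an adjusted p of 0.401 in edgeR. HFD replicate 1 was the highest library for mir-142a, as it was for mir-451a and mir-486a+b, but it was the lowest HFD library for mir-144. The part of red and white blood cells in the members' values was not tested.

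Of the remaining lists, the epithelial one had a median of 0.09 over 5 hairpins and summed to 9281 to 10573 CPM in CD and 8946 to 14327 CPM in HFD. mir-126a, the endothelial hairpin, had a log2 fold change of 0.21 (SE 0.19), with 686 to 896 CPM in CD and 847 to 1223 CPM in HFD. The smooth muscle list had a median of -0.15 over 2 hairpins and summed to 33595 to 50955 and 30612 to 56120 CPM. mir-221 and mir-222 had values of -0.05 (SE 0.16) and -0.29 (SE 0.18), and a sum of 408 to 427 and 369 to 441 CPM. The germ cell list had the lowest median, -0.47 over 12 hairpins, and its sum was 3832 to 11230 CPM in CD and 3858 to 5675 CPM in HFD, with mir-34c at -0.33 (SE 0.25) and mir-871 at -1.20 (SE 0.51). For mir-871, at means of 2289 CPM in CD and 1030 CPM in HFD with overlapping groups, the unadjusted p was 0.0423 and the adjusted p 0.663 in edgeR. Apart from the white blood list, the sums of the lists overlapped between the diets.

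Both treatments of TM4 cells went with a lower level of the mir-486 pair. mir-486a+b was at 2857 and 2737 CPM in the Ctrl replicates, at 1955 and 1879 CPM in the CC replicates and at 1784 and 1762 CPM in the AngOE replicates. Each pair of replicates was tight, and neither treated group overlapped Ctrl. The 2 comparisons share their Ctrl libraries, so they are not independent of each other. The paper adjusted its cell line data for batch effects that it traced to sample preparation. The labels name no batch, so batch and treatment cannot be told apart here. No control with an empty plasmid is described for AngOE. The difference between CC and AngOE was not tested.

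**Figure D4:**
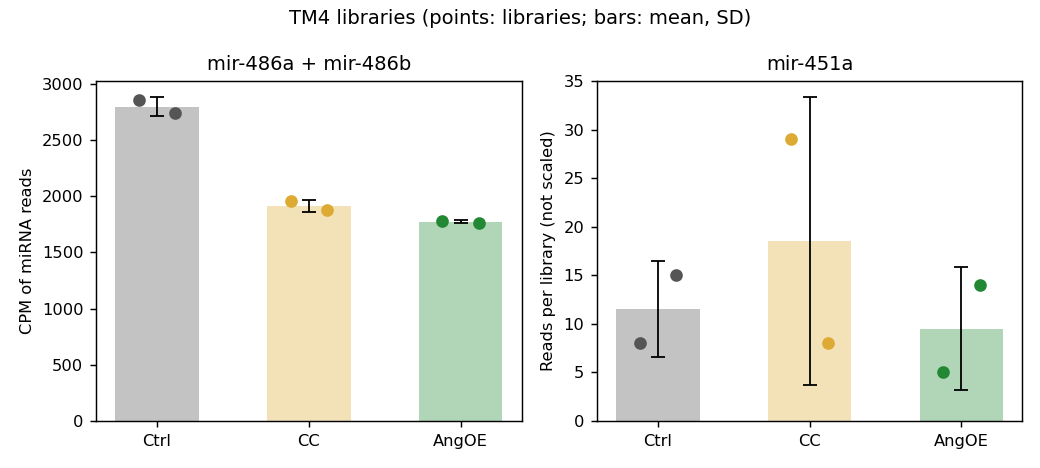
Left, CPM of mir-486a+b in the TM4 groups, and right, the unscaled reads of mir-451a per library. Points are libraries, bars are means of 2 libraries and error bars the SD. For mir-486a+b the Ctrl libraries lie at 2737 CPM or more and all 4 treated libraries at 1955 CPM or less, whereas the mir-451a groups, between 5 and 29 reads, overlap.

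With CC, the mean of mir-486a+b was 1917 ± 53.8 CPM against 2797 ± 84.7 CPM in Ctrl (SD, n = 2 each). In edgeR's test across 533 hairpins, mir-486a and mir-486b were called lower, where 1.88% of the hairpins were called in that direction. The log2 fold change of mir-486a was -0.54 (SE 0.097, adjusted p = 0.00391), and mir-486b, from the same reads, had -0.54 too. Only 49 of the 533 hairpins had a lower fold change than mir-486a. The groups did not overlap, which held in this direction for 23.8% of the hairpins. The exact permutation p was 0.333, the smallest that 2 against 2 libraries can give. Without CC replicate 1 the adjusted p of mir-486a was 0.0585, and without CC replicate 2 it was 0.0870. No hairpin at all was called by edgeR in either of these, with 76 and 68 at an unadjusted p under 0.05, against 22 called with all libraries, while the log2 fold change of mir-486a was -0.60 and -0.50.

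mir-451a was seen in 29 and 8 reads in the CC replicates, against 8 and 15 in Ctrl. Its log2 fold change was 0.81 (SE 0.66, adjusted p = 0.601 in edgeR), and it turned to -0.33 without CC replicate 1. mir-144 had 5 and 0 reads with CC and was too low to test. No change of mir-451a was detected, and its few reads leave the SE wide.

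With Ang overexpression, the mean of mir-486a+b was 1773 ± 15.4 CPM against 2797 ± 84.7 CPM in Ctrl (SD, n = 2 each). mir-486a and mir-486b were called lower again, but so were 14.1% of the 533 hairpins. The log2 fold change of mir-486a was -0.38 (SE 0.097, adjusted p = 0.00499 in edgeR), which 137 hairpins fell below. The groups did not overlap, which held in this direction for 45.2% of the hairpins, and the exact permutation p was 0.333. The pair was thus among many hairpins called lower in AngOE.

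Scaling bears on the size of this change. With TMM, 129 hairpins were called higher and 75 lower and the median of all hairpins was 0.06. With miRNA reads alone as the library size, 81 were called higher and 139 lower, the median was -0.21 and the log2 fold change of mir-486a was -0.66. With clean reads without rRNA, 98 were higher and 103 lower, the median was -0.08 and mir-486a was at -0.53. A change of library size shifts all hairpins alike, and relative to the median mir-486a was at -0.44 with TMM. mir-451a, with 5 and 14 reads in the AngOE replicates, had a log2 fold change of -0.04 (SE 0.72), and mir-144 had 3 and 0 reads.

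Of the other erythroid hairpins 10 were tested in TM4 cells. With CC, where 4.13% of all hairpins were called in either direction, none of the 10 was called by edgeR, and 1 had an unadjusted p under 0.05. That was mir-22, the most abundant, which had a log2 fold change of 0.22 (SE 0.091, adjusted p = 0.200 in edgeR). In AngOE 1 of the 10 was called higher and 2 lower, against 24.2% and 14.1% of all hairpins. mir-92a-1 (-0.68, SE 0.12) and mir-92a-2 (-0.46, SE 0.10), copies that share a mature miRNA and thus reads, were lower, and mir-22 was called higher (0.30, SE 0.091) after TMM scaling, with overlapping groups at means of 70442 against 69149 CPM. The median of that list was 0.05 with CC and -0.15 in AngOE, against -0.03 and 0.06 for all hairpins. mir-221 and mir-222 were both called lower in AngOE, at -0.32 (SE 0.094) and -0.61 (SE 0.10), and neither was called with CC.

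Markers of other cell types were also called in AngOE, where 24.2% of all hairpins were called higher. None of them was called with CC, where 4.13% of all hairpins were called in either direction, and the difference between the treatments was not tested. Of the germ cell list mir-34c (1.26, SE 0.10) was called higher in AngOE, at 1895 against 960 CPM, as were mir-449a (0.88, SE 0.15) and mir-34b (0.55, SE 0.13). mir-871 was called higher too, on 13 and 20 against 5 and 7 reads, but it passed the filter on low counts only through the treated libraries. mir-143 (1.38, SE 0.16) and mir-145a (0.40, SE 0.11) of smooth muscle and mir-126a of endothelium (1.25, SE 0.13) were called higher. In the white blood list mir-155 was called higher (0.32, SE 0.10) as 1 of 4 tested. The groups of mir-155 and mir-145a overlapped in CPM before TMM scaling, at means of 1302 against 1265 and 1300 against 1192 CPM. In every TM4 library mir-223 was at 0.178 CPM or below. The epithelial list had 2 hairpins tested and none called, and its sum was between 1.28 and 2.38 CPM in the 6 TM4 libraries. mir-142a and mir-150 were at 2.63 CPM or below in every TM4 library. Of the white blood list mir-155 and mir-146a alone were above that level in TM4 cells.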

How the data were processed

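The authors trimmed the reads of each library with Trimmomatic 0.40 after FastQC 0.12.0, kept reads of 15 to 45 nt and annotated them with SPORTS1.1, allowing 1 mismatch; the submitters' notes name mm10. The deposited files give estimated counts per class and hairpin, in which a read that matches several hairpins is divided among them, without normalization. Reads with and without a genome match were added here, and no read of the members lacked a match. Clean reads numbered 31710445 to 64038150 per library. CPM is relative to all miRNA reads.

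Counts were rounded and tested with edgeR 4.0.16 in R 4.3.3 (TMM, quasi-likelihood test, a floor of 10 reads in 3 sperm libraries or 2 TM4 libraries, Benjamini-Hochberg over all hairpins tested, called at an adjusted p under 0.05). CD was tested against HFD, CC and AngOE against Ctrl in a model of all 6 TM4 libraries, and CD against Ctrl in a model of those 5 libraries. Exact 2-sided permutation tests used log2(CPM + 1), in scipy 1.17.1. A test of the summed members was planned and is not given, since the members were picked as a group. Intervals are at the 95% level. Folds were predicted with RNAfold 2.7.2. The code was tested on simulated data.

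Members and marker lists were chosen with earlier results of these data known. The text gives the 4 members, for each list the calls with up to 4 of the called hairpins that changed most or, with none called, up to 2 of the most abundant, and the 5 hairpins most like the summed members over sperm. Alternatives were DESeq2 1.42.0 with its own size factors, no TMM, clean reads without rRNA as library size, no filter and genome-matched reads alone. Others were the mir-486 pair added to 1, the replicate number as a block, and ComBat-seq (sva 3.50.0) with the replicate number as batch. Further ones were a model of the compared groups alone or of all 12 libraries, and each library left out. A pseudocount of 10 and a denominator without the members were also used.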

Additional observations from a re-analysis of the deposited data

How the results depend on the processing

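The mir-486 pair was called higher in CD sperm than in Ctrl TM4 cells in 13 of 13 alternatives (mir-144 and mir-451a, which the filter let pass through sperm alone, are not counted), and lower in AngOE in 15 of 15, with log2 fold changes of mir-486a from -0.66 to -0.35. The lower pair with CC was called in 13 of 15, and lost its call without CC replicate 1 (mir-486a -0.60, mir-486b -0.60, adjusted p = 0.0585 each in edgeR) and without CC replicate 2 (-0.50 each, adjusted p = 0.0870). No member was called between the diets in any of 13 alternatives, mir-451a and mir-144 staying higher in HFD in all 13. Without 1 library each, mir-486a ranged there from -0.031 to 0.45 and mir-486b from -0.031 to 0.45, below 0 without HFD replicate 1 (-0.0307 and -0.0306) and without CD replicate 2 (-0.0104 and -0.00948). mir-451a changed sign with CC, ranging from -0.33 without CC replicate 1 to 1.42, and in AngOE, ranging from -0.98 to 0.44, where it was 0.32 without Ctrl replicate 2 and 0.44 without AngOE replicate 1; these rest on 5 to 29 reads per library, and the cause was not tested.

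DESeq2 called 8 hairpins between the diets against 0 in edgeR, none of them a member. The hairpins called with CC, 22 with all libraries, numbered 39 after ComBat-seq, and from 0 (without either CC library) to 26 with 1 library left out, where fewer libraries were tested. ComBat-seq was given the replicate number as its batch. The labels name no batch, and the batches that the paper adjusted for are not known, so its correction was not repeated here. With the replicate number as a block (replicate block), 35 hairpins were called with CC and 222 in AngOE. The counts were 407 between CD sperm and Ctrl TM4 cells and 0 between the diets, and the call of no member changed. Libraries with the same number did not deviate together throughout: the correlations of their deviations were -0.20, -0.42 and 0.12 in sperm and -0.060, -0.20 and 0.31 for the pairs of TM4 groups, so the numbers were not taken as pairs. For mir-144 and mir-451a in TM4 cells the number of reads limits every statement, and with 2 or 3 libraries per group the permutation tests cannot fall below 0.1.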
